A study of Homo sapiens with 4 samples.

Results

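The 47 genes described here encode proteins that drive cells into and through mitosis. They were taken by name from a list of cyclins and kinases, spindle checkpoint, kinetochore, passenger complex, motor, cytokinesis and condensin genes. The naming rule uses no measured value, but the list was drawn up with earlier results of these data known. All 47 were found among 19835 protein-coding genes on chromosomes 1 to 22 and X. Binding of CTCF, the zinc finger protein of insulators and chromatin loop anchors, was mapped by ChIP-seq in the melanoma line MDA-MB-435. The series holds 4 samples in 2 groups, 2 replicates of untreated, asynchronously growing cells precipitated for CTCF of any form, and 2 of mitotic cells precipitated for its form phosphorylated on threonine T431. The mitotic cells were held by 2 mM thymidine for 24 h, let go for 3 h, held again by 100 ng/mL nocodazole for 16 h and shaken off. All values below are from the peak list of replicate 1 of the asynchronous cells. The remaining 3 samples were not analysed here. No value therefore has a replicate check, no comparison between the groups was made, and every interval covers counting error only.

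Most genes of this kind are transcribed late in the cell cycle. Their promoters are held silent in resting cells by a repressor complex that binds the cell cycle homology region, a short element near the transcription start, and CCAAT boxes upstream of it are bound by the activator NF-Y. CTCF recognises a long, GC-rich motif through its zinc fingers, and during mitosis much of it leaves the chromosomes. A peak list of asynchronous cells is mostly a record of interphase, since few cells of such a culture are in mitosis. The list says where CTCF was found, not how much the neighbouring gene was transcribed.

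The library held 19210460 tags and the list 42388 peaks on these chromosomes, each 349 bp wide. Tags per peak are given as normalised tags, scaled to 10000000 tags, with an exact 95% Poisson interval. The caller's score is close to the tag count in the library itself under a limit of 1 tag per position. Its median over all peaks was 39 and the calling minimum was 15 tags. Coordinates are hg38.

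A peak centre lay within 1 kb of an annotated end in 10 of the 47 genes (21.3%, Clopper-Pearson 95% interval 10.7 to 35.7), where 28.4% of all protein-coding genes had one. These were CCNB2, PLK1, LATS2, CDCA8, CDC20, ESPL1, CENPF, ECT2, NCAPD2 and SMC4. The strand and a listed transcription start were known for 40 of the 47, and these 40 include all 10. At the start end 10 of 40 genes had a peak (25.0%, 12.7 to 41.2), against 24.2% of all protein-coding genes of known strand, and at the other end 0 of 40 (interval 0.0 to 8.81%), against 6.63%. In 9 of the 10 genes the peak centre lay upstream of the start (90.0%, 55.5 to 99.7), against 55.5% of all genes with a peak at the start end. The exception was CCNB2, with a peak 941 bp into the gene. The intervals of the shares at any end, at the start end and at the other end all contain the share of all genes. At this number of genes no difference from other genes was detectable in these shares. The interval of the upstream share rests on 10 genes and begins, to the digits given, at the share of all genes.

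Promoter sequences show what lies under the peaks. The peak centre fell within the window from 250 bases before to 50 after the listed start in CDCA8, ECT2, CENPF, LATS2 and ESPL1, and such a centre was found in 9.18% of all promoters. The 250 bases before the start are shown for these, from RefSeq, build GRCh38.p14, 5′ to 3′ in the direction of transcription. Capitals mark 3 kinds of words, searched on both strands. They are the CTCF core, which was searched as AGAGGGC and its variants AGATGGC and likewise AGGGGGC and also AGGTGGC, the cell cycle homology region, written TTTGAA or else as TTCGAA, and the CCAAT box. A word's position is that of its first printed base, as a negative count of bases before the start.
CDCA8: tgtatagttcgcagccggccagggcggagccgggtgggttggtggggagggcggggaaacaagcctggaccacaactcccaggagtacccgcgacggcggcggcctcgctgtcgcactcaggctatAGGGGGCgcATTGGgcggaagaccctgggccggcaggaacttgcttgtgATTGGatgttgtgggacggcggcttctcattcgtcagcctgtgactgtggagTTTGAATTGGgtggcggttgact
ECT2: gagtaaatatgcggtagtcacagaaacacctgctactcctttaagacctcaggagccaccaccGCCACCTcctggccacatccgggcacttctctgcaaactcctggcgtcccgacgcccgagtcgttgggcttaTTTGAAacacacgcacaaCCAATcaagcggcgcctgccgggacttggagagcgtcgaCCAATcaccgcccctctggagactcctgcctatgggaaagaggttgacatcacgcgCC
CENPF: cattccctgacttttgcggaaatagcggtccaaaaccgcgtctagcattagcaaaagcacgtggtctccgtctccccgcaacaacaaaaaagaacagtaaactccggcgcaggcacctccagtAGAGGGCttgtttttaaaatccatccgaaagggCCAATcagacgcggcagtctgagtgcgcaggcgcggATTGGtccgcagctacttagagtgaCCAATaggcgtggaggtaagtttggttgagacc
LATS2: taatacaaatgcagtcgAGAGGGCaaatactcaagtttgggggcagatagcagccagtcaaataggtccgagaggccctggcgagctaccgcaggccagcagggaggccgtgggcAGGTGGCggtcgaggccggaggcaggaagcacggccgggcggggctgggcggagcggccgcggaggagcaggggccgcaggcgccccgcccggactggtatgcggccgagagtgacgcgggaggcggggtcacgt
ESPL1: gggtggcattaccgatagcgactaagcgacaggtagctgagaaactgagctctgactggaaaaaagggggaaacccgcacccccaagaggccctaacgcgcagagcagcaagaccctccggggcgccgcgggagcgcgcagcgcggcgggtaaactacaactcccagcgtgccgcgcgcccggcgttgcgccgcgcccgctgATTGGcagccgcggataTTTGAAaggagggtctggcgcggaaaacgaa

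The stretch before CDCA8 is chr1:37692266-37692515 (plus strand), before ECT2 chr3:172750476-172750725 (plus), before CENPF chr1:214602945-214603194 (plus), before LATS2 chr13:21061587-21061836 (minus) and before ESPL1 chr12:53268049-53268298 (plus). In 4 of the 5 a CTCF core word lay next to the peak centre. The CDCA8 word AGGGGGC began at -124, with its middle 3 bp from the peak centre. In ECT2 the word AGGTGGC lay on the opposite strand, printed as its complement from -187, and its middle was 5 bp upstream of the centre. CENPF had AGAGGGC at -127, 11 bp downstream of the centre, and LATS2 had AGGTGGC at -135, 7 bp downstream, besides AGAGGGC at -233. None of the 4 words was found in the ESPL1 window, whose peak centre was at -151. In CDCA8, TTTGAA at -23 shares a base with the inverted CCAAT box at -18. The last capitals of ECT2 begin a CCAAT box that crosses the start.

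Core words are common, so their presence alone says little. A core word was found in 35.2% of all promoters, in 14 of the 40 mitotic promoters (35.0%) and in 55.1% of the 1451 promoters with a peak centre in the window. Within 20 bp of the centre, a word's middle was found in 384 of these 1451 promoters (26.5%, 24.2 to 28.8), in 35.4% of those with a score at or above the median and in 13.5% of those below it. The mitotic promoters had it in 4 of 5, of which CENPF and LATS2 were below the median score. With 5 promoters the interval of that share runs from 28.4 to 99.5%.

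**Figure D1:**
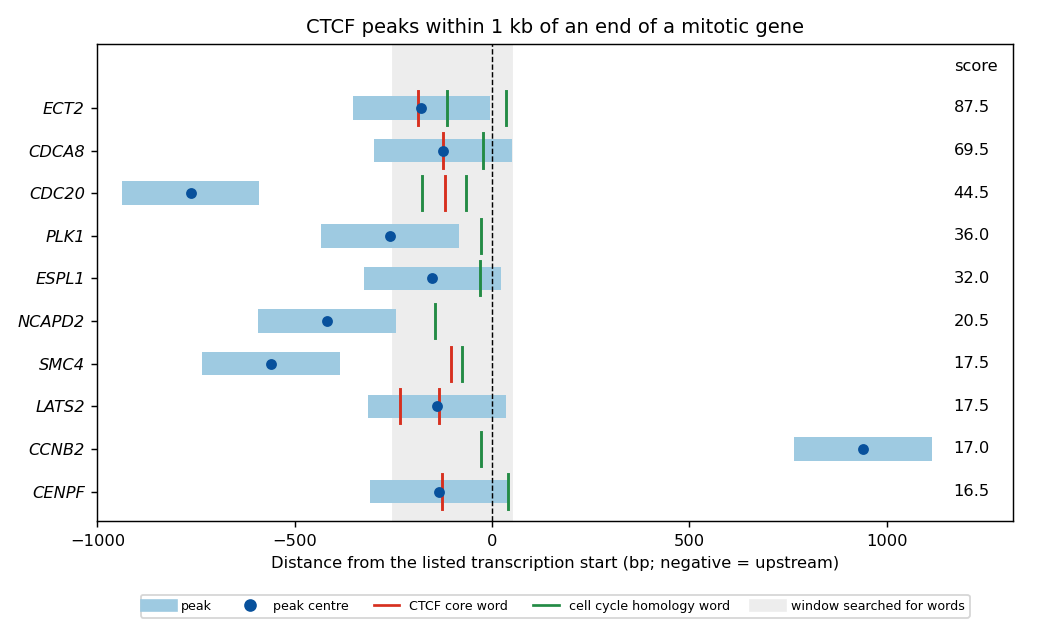
Position of the 10 CTCF peaks (bars, 349 bp, with dots at their centres) in bp from the listed transcription start, 1 row per gene in order of peak score, which is printed at the right. Red ticks mark the first base of CTCF core words and green ticks that of cell cycle homology words, searched within the grey window; 9 centres are upstream of the start, and in CDCA8, ECT2, CENPF and LATS2 a red tick sits beside the centre.

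**Figure D2:**
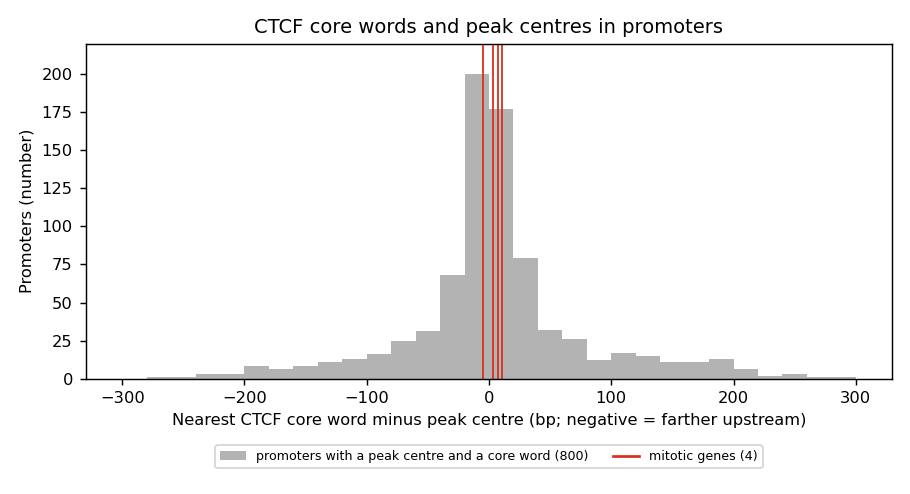
Distance in bp from the peak centre to the middle of the nearest CTCF core word in the 800 promoters that hold both a peak centre and a word (grey bars, number of promoters per 20 bp), with the 4 mitotic promoters as red lines. The bars are highest at the centre, and the red lines lie between -5 and 11 bp.

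Many of the mitotic promoters hold the words of late cell cycle elements whether or not CTCF was called there. The words were counted anywhere in the window and on either strand. A cell cycle homology word was found in 27 of 40 mitotic promoters (67.5%, 50.9 to 81.4), against 13.5% of all promoters, and a CCAAT box in 27 of 40, against 36.4%. The homology word was present in 9 of the 10 genes with a peak at the start, all but LATS2, and in 18 of the 30 without. In CENPF the only such word began 41 bases after the start, outside the stretch shown. The CCAAT box was present in 8 of 10 and in 19 of 30. All promoters were split by a peak centre in the window, not by a peak within 1 kb. There the homology word was found in 10.1% with a centre and 13.9% without. For the CCAAT box the shares were 28.0 and 37.2%. A link between these words and CTCF peaks was not tested. A match is a description of letters and not a site in use. The median GC content of the windows was 61.8% in the mitotic genes, 62.7% in all genes and 67.7% in those with a peak centre inside.

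For contrast, 3 more promoters are shown, picked after their values were seen. PLK1 has its peak centre just before the shown stretch, CCNB2 has its peak inside the gene, and INCENP has no peak within 1 kb although it holds a core word.
PLK1: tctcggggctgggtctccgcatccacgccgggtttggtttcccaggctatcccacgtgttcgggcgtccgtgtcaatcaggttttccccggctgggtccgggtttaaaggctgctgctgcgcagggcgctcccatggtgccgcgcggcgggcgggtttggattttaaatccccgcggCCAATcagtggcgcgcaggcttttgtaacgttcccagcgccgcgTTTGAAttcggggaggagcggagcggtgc
CCNB2: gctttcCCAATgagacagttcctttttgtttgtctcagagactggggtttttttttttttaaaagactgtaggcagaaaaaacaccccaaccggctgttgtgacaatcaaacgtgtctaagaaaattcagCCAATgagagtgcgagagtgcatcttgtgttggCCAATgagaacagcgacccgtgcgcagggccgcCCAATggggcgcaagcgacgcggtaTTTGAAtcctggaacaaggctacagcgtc
INCENP: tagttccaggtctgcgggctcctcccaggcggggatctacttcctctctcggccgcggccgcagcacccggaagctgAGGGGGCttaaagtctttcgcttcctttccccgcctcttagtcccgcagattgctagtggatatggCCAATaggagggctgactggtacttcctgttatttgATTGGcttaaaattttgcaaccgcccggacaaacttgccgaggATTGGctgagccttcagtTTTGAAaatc

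These stretches are chr16:23678639-23678888, chr15:59104896-59105145 and chr11:62123761-62124010, all on the plus strand. PLK1 held TTTGAA at -29 and a CCAAT box at -73, with no core word in the window. The window does not reach its peak centre at -258, so the sequence at that centre was not searched. CCNB2 held TTTGAA at -29 too, with CCAAT boxes at -244, -120, -87 and -54. INCENP had the core word AGGGGGC at -173 and the nearest called peak 15.8 kb away.

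The genes are taken by role below, in groups of 2 to 9. Of all genes, 28.4% had an end peak, 42.1% an inside peak and 41.9% neither. Groups this small have wide intervals, and no group was tested against all genes. The group of mitotic entry holds the cyclins CCNA2, CCNB1 and CCNB2, their kinase CDK1, its inhibitor WEE1 and its activating phosphatase CDC25C. Of the 6, CCNB2 had a peak at an end and none had a peak inside (0 of 6, interval 0.0 to 45.9%), which left 5 with neither (35.9 to 99.6%). The CCNB2 peak (chromosome 15, 59105913 to 59106261) held 8.59 normalised tags (5.16 to 14.2), with a score of 17 and a 6.29-fold excess over the surrounding 10 kb. That is near the calling minimum. CCNA2 stood far from any peak, 76.7 kb on the nearer side and 79.5 kb on the other, with 32.5 and 25.2 normalised tags there. CDC25C was the opposite case, with a peak of 28.1 normalised tags 1.93 kb past its downstream end. On its upstream side, 14.2 kb away, stood the strongest peak next to any of the 47 genes, with 241.3 normalised tags (220 to 265). That peak lies 85 bp from an end of KDM3B, a histone demethylase gene.

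The spindle kinases and the LATS kinases had 2 end peaks between them. PLK1 encodes Polo-like kinase 1, which acts at centrosomes, kinetochores and the midbody. Its peak (chromosome 16, 23678457 to 23678805) held 18.7 normalised tags (13.1 to 25.9), 258 bp upstream of the start, with a focus ratio of 0.811, which gives the part of its tags placed around the centre as a bound factor would leave them. AURKA, the centrosomal Aurora kinase, had no peak at or in the gene, and its nearest peak, of 19.5 normalised tags, was 7.99 kb away. TPX2, which activates AURKA on the spindle, had 1 inside peak of 7.81 normalised tags. NEK2, a centrosome separation kinase, had none but lay between outside peaks of 64.8 and 33.3 normalised tags, 2.88 and 5.28 kb away. LATS2, a kinase of the Hippo pathway, held 9.11 normalised tags (5.55 to 14.8) at its start, with a focus ratio of 0.653 and 4.46-fold over the local region, close to the required 4-fold. A second LATS2 peak, inside the gene, held 7.81 normalised tags. Its relative LATS1 had neither, and its nearest peak of 26.0 normalised tags was 5.91 kb upstream.

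In the chromosomal passenger complex, which corrects wrong chromosome attachments, 1 of 4 genes had a peak. CDCA8, the borealin subunit, held 36.2 normalised tags (28.4 to 46.0) at chromosome 1, 37692218 to 37692566, with a score of 69.5 and 19.03-fold over the local region. The peak is also 150 bp from an end of AIRIM. AURKB, the kinase of the complex, lay between weak peaks of 14.8 and 16.1 normalised tags on a high local background of 3.45 and 2.98 normalised tags. BIRC5, which encodes survivin, had no peak at or in the gene. Its outside peaks were unequal, with 34.6 normalised tags on one side, 65 bp from an end of TK1, and 182.5 (164 to 203) on the other.

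Spindle checkpoint genes, whose products hold back anaphase until all chromosomes are attached, had an end peak in 0 of 6 (interval 0.0 to 45.9%), a range that contains the 28.4% of all genes. Of the 6, BUB1B, BUB3 and MAD1L1 had peaks inside. MAD1L1, by far the longest of the 47 genes at 417 kb, held 7 of the 25 inside peaks. Of these, 6 were weak, between 8.07 and 12.0 normalised tags, and the strongest, 23.3 kb from the start, held 46.1 (37.2 to 57.0) with a focus ratio of 0.912 and 41.83-fold over the local region. The BUB1B peak held 25.0 normalised tags and lay 42 bp from an annotated end of BUB1B-PAK6, a read-through gene that overlaps it. BUB1 was the most isolated, with the nearer peak 77.7 kb away at 7.81 normalised tags and the farther one 338 kb away at 13.8. The farther peak had a local background of only 0.0282 normalised tags and stood 488.5-fold over it. TTK lay between peaks of 9.11 and 10.4 normalised tags. MAD2L1 was flanked closely, at 4.54 and 5.56 kb, by peaks of 15.9 and 31.0 normalised tags.

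Of the 4 genes of anaphase control, CDC20 and ESPL1 had start peaks. CDC20 activates the ubiquitin ligase that triggers anaphase, and ESPL1 encodes separase, the protease that cuts cohesin. The CDC20 peak (chromosome 1, 43358043 to 43358391) held 21.9 normalised tags (15.8 to 29.6), 764 bp upstream of the start, with a score of 44.5. ESPL1 held 16.4 normalised tags (11.4 to 23.5) 151 bp upstream of the start, and a stronger peak of 32.8 (25.2 to 42.0) inside the gene, 5.74 kb before its downstream end. The intervals of these 2 ESPL1 peaks did not overlap. PTTG1, which encodes the separase inhibitor securin, and SGO1, the protector of centromeric cohesin, had no peak at or in the gene.

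Of the 9 kinetochore and centromere genes, 8 had a peak neither at an end nor inside (interval 51.8 to 99.7%), against 41.9% of all genes. The interval does not contain that share, but this group was singled out from 9 after the counts were seen. It is therefore not set apart by this interval. NDC80, NUF2, SPC24, SPC25 and KNL1, which build the outer plate that grips microtubules, had none, and neither did CENPA, the centromeric histone, CENPC or CENPE. The exception was CENPF, which held 5 peaks. At its start (chromosome 1, 214602886 to 214603234) stood the lowest-scoring of the 10 end peaks, with 8.33 normalised tags (4.76 to 13.5) and a score of 16.5, although a core word lay 11 bp from its centre. The 4 inside peaks held 44.5, 18.5, 10.9 and 10.9 normalised tags, so the strongest CTCF signal of CENPF was 25.1 kb into the gene (35.3 to 54.7), above the interval of the start peak. Outside peaks came close to several kinetochore genes, at 3.56 kb for NUF2, 3.82 kb for CENPC, 4.26 kb for KNL1 and 5.88 kb for CENPE, and SPC25 was farthest at 30.3 kb. SPC24 lay between strong ones of 64.3 and 80.4 normalised tags.

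Motor and cytokinesis genes included the strongest end peak. ECT2 encodes the exchange factor that switches on RhoA at the cleavage furrow. Its peak (chromosome 3, 172750373 to 172750721) held 46.3 normalised tags (37.2 to 57.0), with a score of 87.5, higher than that of 85.2% of all peaks, and 18.72-fold over the local region. A second peak inside ECT2 held 14.8. The spindle motor gene KIF11 held 1 inside peak of 19.8 normalised tags, KIF2C, a microtubule depolymerase gene, 1 of 8.33 and the cytokinetic scaffold gene ANLN 1 of 12.8. KIF23 and PRC1, which organise the central spindle, had no peak at or in the gene, but their nearer outside peaks were 3.87 and 9.32 kb away with 32.3 and 70.0 normalised tags.

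Condensin and topoisomerase genes, which shape mitotic chromosomes, had a peak at an end or inside in 5 of 6. The 1 of 6 with neither (interval 0.421 to 64.1%) stands beside 41.9% of all genes. NCAPD2, a condensin I subunit, held 10.4 normalised tags (6.36 to 16.1) 418 bp upstream of its start, and the peak is 422 bp from an end of MRPL51. SMC4, an ATPase subunit shared by both condensins, held 8.85 normalised tags (5.16 to 14.2) 561 bp upstream of its start, 136 bp from an end of IFT80, and 41.1 (32.6 to 51.3) at 14.2 kb inside the gene. The inside peak of SMC4 was the stronger, and their intervals did not overlap. NCAPG held 1 inside peak of 19.5 normalised tags and NCAPH 1 of 7.81. TOP2A, the decatenating topoisomerase, held 2 inside peaks of 16.1 normalised tags each, the nearer 2.4 kb from its start. SMC2, the partner of SMC4, had none, and its outside peaks were 35.8 and 298 kb away.

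**Figure D3:**
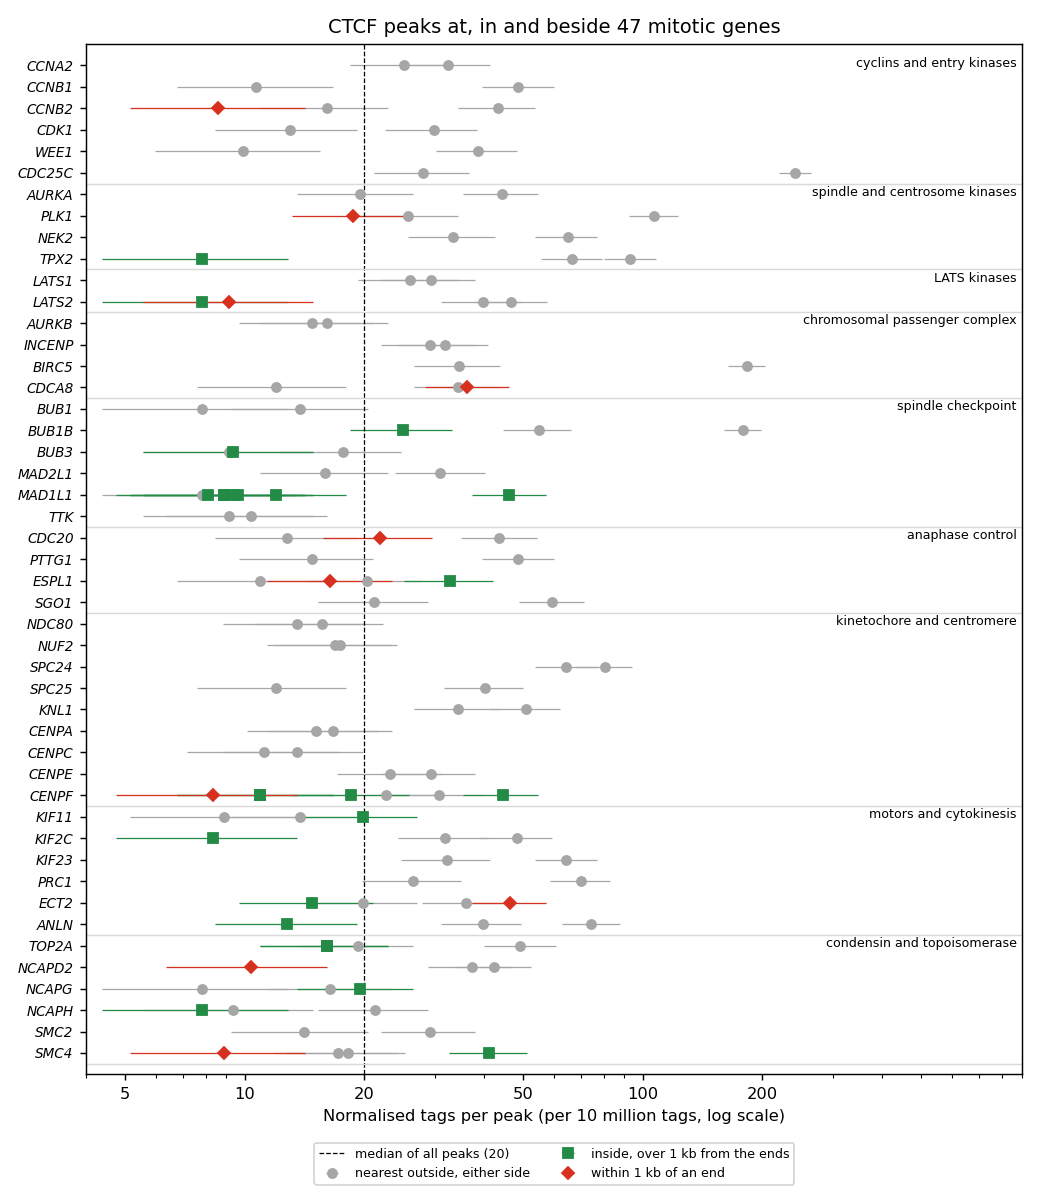
Normalised tags per peak (log scale) for the 47 genes, 1 row per gene, grouped by role, with 95% Poisson intervals. Red diamonds are peaks within 1 kb of an end, green squares peaks inside and grey dots the nearest outside peaks; 7 of the 10 red diamonds lie below the dashed median of all peaks, and the 3 values above 150 are grey dots next to CDC25C, BIRC5 and BUB1B.

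Among the 10 end peaks scores ran from 16.5 to 87.5 with a median of 26.25, where the 5251 peaks at the ends of all protein-coding genes had a median of 43.5. CDC20, CDCA8 and ECT2 reached the median score of all peaks, 3 of 10 peaks (30.0%, 6.67 to 65.2), against 53.6% of all end peaks, which that interval contains. Counted as genes, that is 3 of 47 (6.38%, 1.34 to 17.5), where 15.3% of all protein-coding genes had an end peak of that score. The median excess over the local region was 8.3-fold against 11.75-fold, and the median focus ratio 0.803 against 0.816. With a limit of 500 bp, which left 7 peaks, the median excess was 11.17-fold against 11.7-fold. Local background, obtained as normalised tags over the fold value, was 1.925 at the 10 peaks and 1.857 at all end peaks. The peaks at CDCA8, NCAPD2 and SMC4 were within 1 kb of an end of another protein-coding gene as well, 3 of 10 against 14.1% of all end peaks, so those 3 cannot be assigned to the mitotic gene alone. The clonal fold, the authors' measure of repeated tags, was between 0.9 and 1.01 at the 10 peaks.

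**Figure D4:**
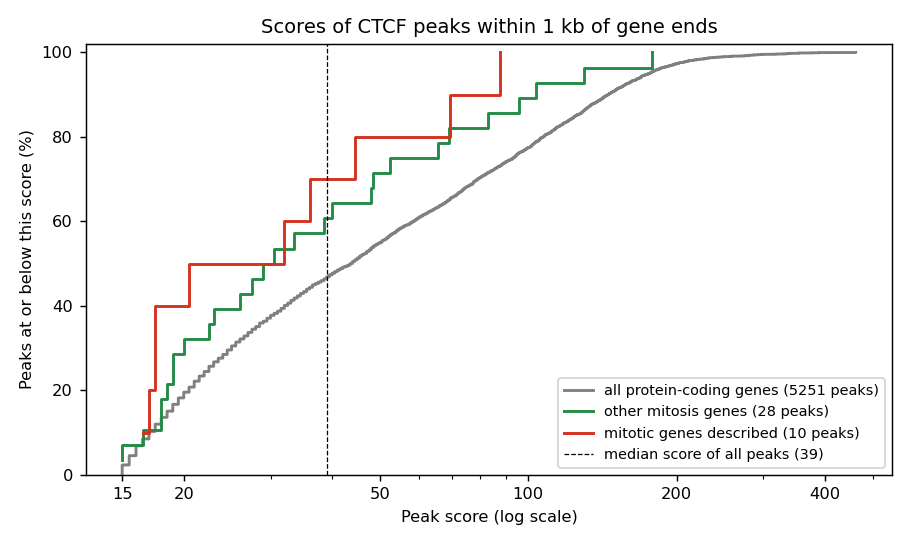
Cumulative share of peaks (percent) by score (log scale) for peaks within 1 kb of gene ends, for the 10 peaks of the mitotic genes described (red), the 28 peaks of the other mitosis genes (green) and all 5251 such peaks (grey). The red curve is already at 50% by a score of 20.5 and ends at 87.5, while the grey curve reaches 50% at 43.5.

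The end peaks nearest the 1 kb limit were those of CCNB2 at 941 bp, just inside it, and CDC20 at 764 bp. The next outside were CDC25C at 1930 bp, MAD1L1 at 2235 bp, NCAPG at 2250 bp and KIF11 at 2279 bp, with 28.1, 7.81, 16.4 and 13.8 normalised tags. With a limit of 5 kb, 23 of the 47 genes had a peak, against 53.2% of all genes.

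Inside the genes, over 1 kb from the ends, 15 of 47 had a peak (31.9%, 19.1 to 47.1), against 42.1% of all protein-coding genes, and 27 had a peak neither inside nor at an end (57.4%, 42.2 to 71.7), against 41.9%. The median length of the mitotic genes was 29.4 kb, against 24.5 kb in all genes. A median does not describe the longest genes, and an effect of length on these shares was not tested. The 25 inside peaks of the mitotic genes came to 1.28 per 100 kb of gene interior, against 1.49 in all genes, and to 1.17 without MAD1L1. Most inside peaks were weak, with a median of 12.0 normalised tags against 19.5 for all inside peaks. The 25 include the 7 of MAD1L1, most of them between 8.07 and 12.0 normalised tags, so that gene weighs on this median. At or above the median score, inside peaks were found in BUB1B, CENPF, ESPL1, MAD1L1 and SMC4, 5 of 47 (10.6%, 3.55 to 23.1), against 27.8% of all genes. Such a peak at an end or inside was lacking in 39 of the 47 (83.0%, 69.2 to 92.4), against 61.6%.

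Beyond the genes the peaks were ordinary in distance and not weak. The nearer outside peak was a median of 12.9 kb from the mitotic genes, and 12.9 kb from all protein-coding genes. It was within 10 kb for 23 of 47 (48.9%), against 41.9%. The 94 nearest outside peaks, 1 on each side of each gene, had a median score of 51.75, against 42.5 for all such peaks of protein-coding genes and 26.25 for the end peaks of the mitotic genes. Of the 94, 18 (19.1%) lay within 1 kb of an end of another protein-coding gene, against 15.9%. These 18 held between 7.81 (LCORL beside NCAPG) and 241.3 normalised tags (KDM3B beside CDC25C), and 11 of them reached the median of all peaks. Of the 18, 5 stood beside a mitotic gene with an end peak of its own. The neighbour's peak was the stronger in 2, with 106.5 normalised tags at NDUFAB1 against 18.7 at PLK1, and 37.2 (28.9 to 46.6) at GAPDH against 10.4 at NCAPD2. It was the weaker in 3, with overlapping intervals in each. These were 12.8 (8.42 to 19.2) at MED8 against 21.9 at CDC20, 10.9 (6.77 to 16.7) at MYG1 against 16.4 at ESPL1, and 34.4 (26.6 to 43.7) at AIRIM against 36.2 at CDCA8. Both peaks of the last pair lie within 1 kb of an AIRIM end, at 958 and 150 bp, so it does not set a neighbour apart from CDCA8.

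**Figure D5:**
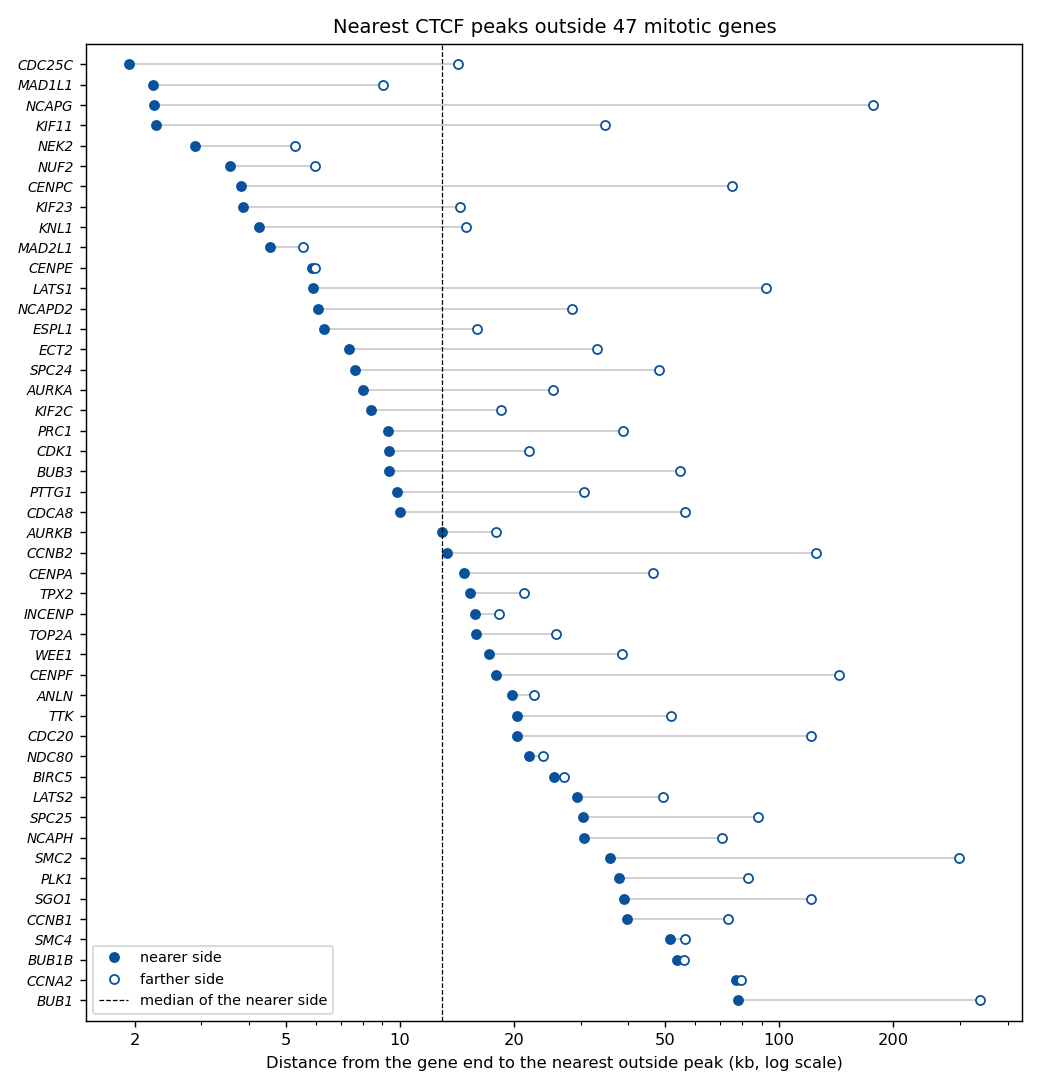
Distance in kb (log scale) from each of the 47 genes to the nearest outside CTCF peak on its nearer side (filled) and farther side (open), in order of the nearer distance. The distances on the nearer side run from 1.93 kb at CDC25C to 77.7 kb at BUB1 around a median of 12.9 kb (dashed). Those on the farther side reach 338 kb at BUB1.

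Local background, taken as the median over a gene's own and nearest outside peaks, was highest at BUB1B with 3.43 normalised tags, AURKB with 3.21 and CDC25C with 3.09. It was lowest at BUB1 with 0.683, TTK with 0.851, and AURKA and BUB3 with 1.08 each. The median over all peaks was 1.472. These medians rest on 2 peaks each, or 3 in BUB1B and BUB3. In CDC25C the 2 values were unlike, 5.05 at the peak 14.2 kb away and 1.12 at the one 1.93 kb away. Those of BUB1 were 0.0282 at the peak 338 kb away and 1.34 at the one 77.7 kb away. For these 2 genes the median does not describe the surroundings of the gene itself. The outside peaks of BUB1B held 178.5 and 54.9 normalised tags on backgrounds of 5.3 and 3.43. None of the 47 had a background at its own peaks above the 2.47 of the ECT2 peak.

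A list of 91 other mitosis genes, covering further centromere proteins, the anaphase ligase, condensin II, kinesins and regulators, was examined the same way. A peak lay within 1 kb of an end in 30 of them (33.0%, 23.5 to 43.6), against 28.4% of all genes, and a peak at or above the median score in 13 (14.3%), against 15.3%. Inside peaks were found in 33 of 91 (36.3%), against 42.1%. These genes shared 28 end peaks, with a median score of 29.75. At the start end 25 of 79 genes of known strand had a peak, and at the other end 1 of 79, ENSA, against 24.2 and 6.63% of all genes. The highest score, 178.5, belonged to a peak between CDC25B, a phosphatase that activates CDK1, and CENPB, a centromere DNA-binding protein, with 104.6 normalised tags (90.7 to 120). It lay 40 bp from the end of CDC25B and 171 bp from that of CENPB. KIF22, a chromosome arm motor gene, held 71.3 normalised tags (59.9 to 84.3) and DSN1, a kinetochore gene, 50.0 (40.5 to 61.0). Each of these 3 peaks held more tags than the strongest end peak of the 47 genes, the 46.3 of ECT2, though the interval of that one (37.2 to 57.0) overlapped that of DSN1.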

How the data were processed

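Of 4 ChIP-seq samples, the peak list of asynchronous replicate 1 was used. The submitters' processing notes name Bowtie2, HOMER and the build hg38. No version of any is given in the sources used here. HOMER's findPeaks worked without a named control library, per the file headers, and kept peaks of 15 or more tags (false discovery rate 0.001) that stood 4-fold or more above their 10000 bp neighbourhood, counting up to 1 tag per position. The tag signal was deposited as tags per 10000000, per the file headers. The focus ratio was deposited as a fraction, the score is the caller's own as deposited, and the deposited fold over the local region and the clonal fold are ratios, all made by the authors' caller and used here only to describe peaks. The local p-value, also deposited, was left aside.

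Peak centres were compared with gene positions from RefSeq, build GRCh38.p14, which has the hg38 chromosomes. The transcription start was the outermost one in the RefSeq promoter table, which holds 40 of the 47 genes. AURKA, BIRC5, BUB3, KNL1, TPX2, TTK and WEE1 were not matched. Depth was 19210460 tags. Normalised tags were turned back into whole tags for exact Poisson intervals, and shares have Clopper-Pearson 95% intervals. No test was made, since 1 library has no replicate error. Classing was tested on 200 genes with a simulated peak at an end, inside, outside or absent. All 200 were classed as planted, as end, inside or neither. End peaks were simulated at the lower-coordinate end only, and the choice of the nearest outside peak was not tested. The members and lists were chosen with earlier results of these data known. All members with a peak, the nearest and farthest outside peaks of each role group, the 3 highest and 3 lowest local backgrounds and the 5 highest-scoring genes of the other list were to be named, of which 1 is not reported here. Promoters were to be shown for every gene with a start peak and the 4 genes next past the limit. They are shown only where the peak reaches them, with PLK1, CCNB2 and INCENP for contrast. Scripts ran under Python 3.11.15 with pandas 2.3.3, numpy 2.4.6, scipy 1.17.1 and, for the plots, matplotlib 3.10.9.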

Additional observations from a re-analysis of the deposited data

How the results depend on the processing

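No paired analysis was possible because only 1 sample had a file and no result comes from a test. Leaving out replicates was not possible for the same reason. Of the 47 genes, 10 had a peak within 1 kb of an end, 7 within 500 bp, 23 within 5 kb and 3 at or above the median score, where all protein-coding genes had 28.4, 20.6, 53.2 and 15.3%. Genes with an inside peak fell from 15 to 5 at or above the median score, where the share of all genes fell from 42.1 to 27.8%. In the list of 91 other genes the 30 became 48 within 5 kb and 13 at or above the median score. The median distance to the nearest outside peak, 12.9 kb, became 21.9 kb for peaks at or above the median score and 38.4 kb on the farther side, where all genes had 23.2 and 48.2 kb. Counting any overlap of a peak with the window left 10 of the 47 genes, where the share of all genes was 30.3%. With windows of 500 bp and 5 kb the median score of the end peaks, 26.25, was 32.0 and 31.5, the fold, 8.3, was 11.17 and 8.83, and the local background, 1.925, was 1.902 and 1.741. At the calling minimum of 15 tags the Poisson interval runs from 4.37 to 12.9 normalised tags, so weak peaks are the least certain, and a gene without a called peak may still be bound below that level.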
